A study of Mus musculus with 12 samples.

Results

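Major histocompatibility complex (MHC) class II molecules carry peptides from endosomes to the surface of macrophages, dendritic cells and B cells, where CD4+ T cells read them. The α and β chains assemble around the invariant chain, encoded by *Cd74*, and the H2-DM heterodimer, encoded by *H2-DMa* and *H2-DMb1*, later exchanges the remnant of the invariant chain for a peptide. *Ciita* encodes the co-activator that binds the factors on class II promoters. In macrophages, interferon (IFN) γ is the classical inducer of *Ciita*, in part through Irf1. The genes described here are these 7: *Ciita*, *Cd74*, *H2-Aa*, *H2-Ab1*, *H2-Eb1*, *H2-DMa* and *H2-DMb1*. They were chosen by name, and their probes were found through the accession or gene name on the array. Of these 7 genes, 6 had a probe, 10 probes in all, among 32301 genes or transcripts on the array. *H2-Eb1* was not analysed here, since no probe matched it. All 6 measured genes were well above background on all 12 arrays, so none entered the test through 1 group alone, and the test held 22373 genes or transcripts.

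RNA was measured in bone marrow-derived macrophages (BMDMs), cells grown from C57BL/6 mouse marrow for 7 days with the growth factor M-CSF, on 1-colour Agilent arrays. The mice were 8 weeks old and either wild type (WT) or KpCKO, which carry *Keap1* flox/flox with *LysM*-Cre, a Cre recombinase expressed in myeloid cells, and in which Nrf2 is activated through the loss of Keap1. The 3 conditions were no stimulus (Con), lipopolysaccharide (LPS) with IFNγ for 6 h (M1) and IL-4 for 6 h (M2). There were 2 independent cultures, each from a pair of mice of both genotypes, so each of the 6 groups had n = 2. Each mouse gave the cells of all 3 conditions. Culture 1 came from males and culture 2 from females, and sex and culture cannot be told apart. WT mice without Cre were the control, so Cre and the *Keap1* deletion cannot be told apart. The 4 arrays of a stimulus shared 1 slide, so genotypes were compared within a slide, while stimulus and slide cannot be told apart. The 75th percentile of an array's signal ranged from 966 to 1166 outside M1, and lay lower in M1, at 906 and 787 for KpCKO and at 757 and 548 for WT. For *Keap1* the KpCKO array lay below the WT array in 6 of 6 pairs (log2 difference −1.92 to −1.45), and for *Nqo1*, a target of Nrf2, it lay above in 6 of 6 (3.06 to 3.53). The macrophage markers *Csf1r*, *Adgre1*, *Itgam*, *Mertk*, *Fcgr1*, *Lyz2* and *Cd14* were well above background on all 12 arrays.

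Class II promoters share an X box, bound by the RFX and CREB factors, and a Y box, bound by NF-Y, and Ciita docks on the complex they form. The letters of both were looked up in RefSeq promoter windows of build GRCm38.p6, which run from 250 bases before to 50 bases after a gene start. Such a window was at hand for 4 of the 7 genes, *H2-Aa*, *H2-Eb1*, *H2-DMa* and *H2-DMb1*. The stretches below show the part of each window with the match, and those of *H2-DMb2*, *H2-Oa* and *H2-Ob*, other class II genes, are added for comparison. Capitals mark TGATTGG (Y letters), AACNNATGA (X letters) and TGACGTCA (the CRE letters, a CREB site), each searched on both strands.
H2-Aa (chr17:34287861-34287923, minus strand): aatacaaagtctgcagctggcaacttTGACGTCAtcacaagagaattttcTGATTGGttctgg
H2-Eb1 (chr17:34305756-34305818, plus strand): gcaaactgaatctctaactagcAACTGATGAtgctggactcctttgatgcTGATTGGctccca
H2-DMb1 (chr17:34153078-34153140, plus strand): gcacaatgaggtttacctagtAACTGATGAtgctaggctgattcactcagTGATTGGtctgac
H2-DMb2 (chr17:34145107-34145169, plus strand): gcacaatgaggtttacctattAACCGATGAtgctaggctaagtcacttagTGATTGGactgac
H2-Oa (chr17:34092284-34092346, plus strand): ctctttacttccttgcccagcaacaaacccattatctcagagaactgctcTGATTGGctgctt
H2-Ob (chr17:34238796-34238858, plus strand): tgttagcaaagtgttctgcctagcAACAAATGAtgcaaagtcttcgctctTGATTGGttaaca

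The X and Y letters stood together upstream of *H2-Eb1*, *H2-DMb1*, *H2-DMb2* and *H2-Ob*, separated by 19, 20, 20 and 17 bases. Of 32851 promoter windows, 935 (2.85%) held the X letters, 2568 (7.82%) held the Y letters and 101 (0.307%) held both. *H2-Aa* held the Y letters and, 16 bases further from the start, the CRE letters, which 1.79% of windows held. Neither of the 2 windows of *H2-DMa* held any of the 3 runs, which says only that these letters are not in those windows. 2 further runs were searched on both strands. TGAGNNNGC and TGACNNNGC, forms of the antioxidant response element that Nrf2 binds, were in 17.6% and 12.4% of all windows. The former was found in 1 window of *H2-DMa*, and the latter in those of *H2-DMb1* and *H2-DMb2*. Neither run overlapped the X, Y or CRE letters. These matches are a description of the sequence, and binding was not measured at these sites in the data used here.

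**Figure D1:**
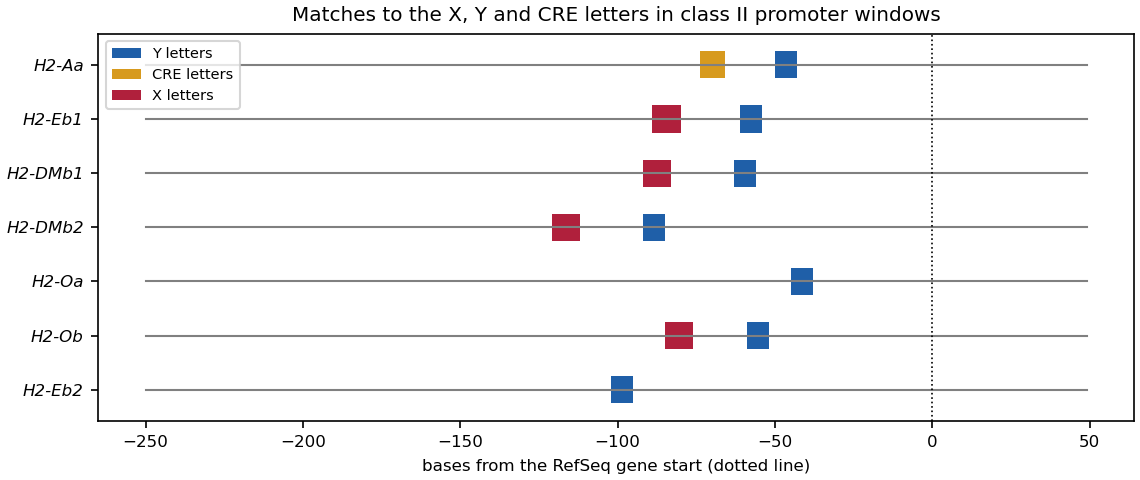
Position of the X letters, the Y letters and the CRE letters in the RefSeq promoter windows of 7 class II genes, in bases from the gene start (dotted line). In each window the Y letters lie nearer to the start than the X or CRE letters, and *H2-Oa* and *H2-Eb2* show the Y letters alone.

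All 6 measured class II genes rose after M1 stimulation in WT BMDMs, by 1.77 to 4.13 on the log2 scale, and all 6 rose in KpCKO BMDMs, by 1.55 to 5.17. *Ciita* rose most, followed by both *H2-DM* genes, while *H2-Aa* rose least in both genotypes. By limma's test at an adjusted p of 0.05, 34.5% of all genes tested were higher with M1 stimulation in WT, and 24.8% in KpCKO. Over the 6 genes, the median log2 difference was 2.70 for WT and 2.49 for KpCKO, against 0.13 and 0.03 over all genes tested. In a bulk culture, fewer cells of a type and less RNA per cell cannot be told apart. In the values below, a level is the log2 intensity minus that of the array's 75th percentile, and culture 1 is given before culture 2.

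*Ciita* was at −0.82 and 0.76 in WT Con, −1.76 and 0.19 in KpCKO Con, then 4.91 and 3.29 in the WT M1 arrays, with 4.90 and 3.87 for KpCKO M1. The M1 arrays lay above every Con array, and culture 1 was the lower of the pair in Con and the higher in M1 in both genotypes. The log2 rise was 4.13 ± 0.86 (SE) in WT (adjusted p = 0.0050) and 5.17 ± 0.86 in KpCKO (adjusted p = 0.0024). In WT it was 5.74 in culture 1 and 2.52 in culture 2, and in KpCKO it was 6.66 and 3.68. The size thus differed more between cultures than between genotypes, and leaving out 1 array of the groups compared gave 2.92 to 5.34 in WT and 4.23 to 6.11 in KpCKO. The *Ciita* gene has several promoters used by different cell types, and which of their transcripts its only probe here, A_52_P109941, detects was not tested.

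The classical chains are encoded by *H2-Aa* (I-A α) and *H2-Ab1* (I-A β). *H2-Aa* was at 2.18 and 2.47 in WT Con, 2.21 and 1.98 in KpCKO Con, then 3.97 and 4.23 in the WT M1 arrays, with 3.72 and 3.57 for KpCKO M1. *H2-Ab1* was at 5.04 and 5.55 in WT Con, 4.89 and 4.87 in KpCKO Con, then 7.82 and 8.00 in the WT M1 arrays, with 7.25 and 7.21 for KpCKO M1. For both chains every M1 array lay above every Con array, and both WT M1 arrays lay above both KpCKO M1 arrays. *H2-Aa* rose by 1.77 ± 0.22 (SE), or 3.42-fold, in WT (adjusted p = 0.00040) and by 1.55 ± 0.22, or 2.93-fold, in KpCKO (adjusted p = 0.0011). The rise of *H2-Ab1* was 2.61 ± 0.24, or 6.12-fold, in WT (adjusted p = 0.00011) and 2.35 ± 0.24, or 5.10-fold, in KpCKO (adjusted p = 0.00029). The 2 probes of *H2-Aa* gave 1.76 to 1.77 in WT, and the 3 probes of *H2-Ab1* gave 2.48 to 2.77. With quantile normalization, which forces the arrays to 1 distribution, the WT rise of *H2-Ab1* was 1.76 and still passed the test (adjusted p = 0.00047).

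*Cd74* was at 4.76 and 5.11 in WT Con, 4.22 and 4.34 in KpCKO Con, then 7.16 and 7.29 in the WT M1 arrays, with 6.42 and 6.45 for KpCKO M1. None of these 4 groups overlapped another. Its rise was 2.29 ± 0.16 (SE), or 4.90-fold, in WT (adjusted p = 4.0e-05) and 2.16 ± 0.16, or 4.47-fold, in KpCKO (adjusted p = 9.0e-05). With quantile normalization the WT rise was 1.48, the adjusted p was 0.00019, and all 6 genes still passed the test in both genotypes.

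The peptide exchanger showed a similar rise in both of its chains. *H2-DMa* was at 0.49 and 0.68 in WT Con, 0.26 and 0.95 in KpCKO Con, then 3.82 and 3.61 in the WT M1 arrays, with 3.51 and 3.72 for KpCKO M1. *H2-DMb1* was at 2.72 and 3.06 in WT Con, 2.84 and 3.44 in KpCKO Con, then 5.76 and 5.58 in the WT M1 arrays, with 5.81 and 5.73 for KpCKO M1. Within M1 the genotypes overlapped for *H2-DMa*, and for *H2-DMb1* the higher WT array lay between both KpCKO arrays. *H2-DMa* rose by 3.13 ± 0.23 (SE), or 8.76-fold, in WT (adjusted p = 4.1e-05) and *H2-DMb1* by 2.78 ± 0.22, or 6.86-fold (adjusted p = 6.2e-05). In KpCKO the rises were 3.01 ± 0.23 (adjusted p = 8.6e-05) and 2.63 ± 0.22 (adjusted p = 0.00013). With quantile normalization the WT rise of *H2-DMb1* was 2.13 (adjusted p = 0.00026).

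**Figure D2:**
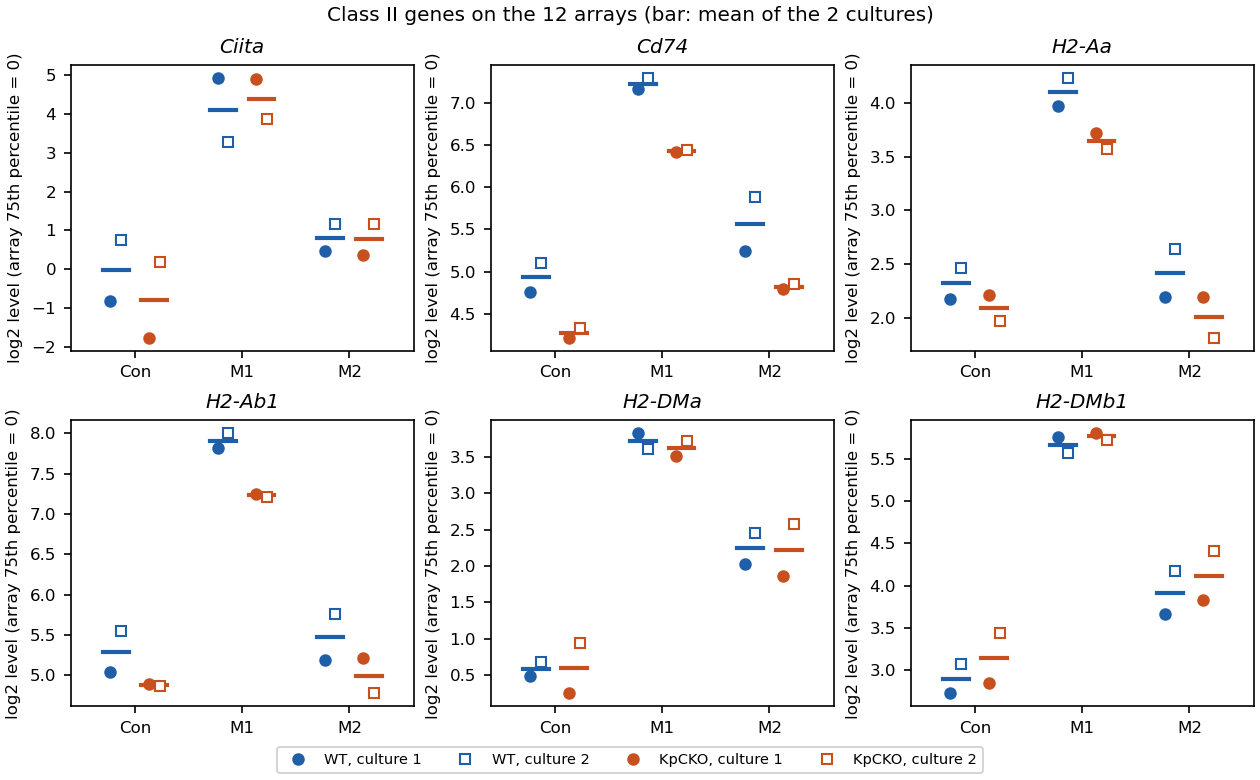
Log2 level of the 6 measured class II genes on the 12 arrays, relative to the 75th percentile of each array, by stimulus, with WT in blue, KpCKO in orange, culture 1 as filled circles, culture 2 as open squares and bars at the mean of the 2 cultures. M1 arrays lie highest in every panel, M2 arrays lie above Con for both *H2-DM* genes, and the WT arrays of *Cd74* lie above the KpCKO arrays within each stimulus.

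After IL-4, part of the set was higher than in Con. In WT, 3 of the 6 genes were higher in M2 than in Con, *H2-DMa*, *H2-DMb1* and *Cd74*, and 2 of 6, both *H2-DM* genes, were higher in KpCKO. Over all genes tested, 8.62% were higher in WT M2 and 5.66% in KpCKO M2. The 6 genes had a median log2 difference of 0.74 (WT) and 0.76 (KpCKO), against −0.01 and 0.01 over all genes. *H2-DMa* was at 2.03 and 2.46 in WT M2 and at 1.87 and 2.58 in KpCKO M2, above all 4 Con arrays and below all 4 M1 arrays. Its rise was 1.66 ± 0.23 (SE), or 3.16-fold, in WT (adjusted p = 0.0053) and 1.62 ± 0.23, or 3.07-fold, in KpCKO (adjusted p = 0.0093). *H2-DMb1* was at 3.66 and 4.17 in WT M2 and at 3.83 and 4.41 in KpCKO M2, above all 4 Con arrays as well. Its rise was 1.02 ± 0.22, or 2.03-fold, in WT (adjusted p = 0.0244) and 0.98 ± 0.22, or 1.97-fold, in KpCKO (adjusted p = 0.0388).

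*Cd74* was at 5.24 and 5.89 in WT M2 and at 4.80 and 4.85 in KpCKO M2. The difference from Con was 0.63 ± 0.16 (SE), or 1.55-fold, in WT (adjusted p = 0.0418) and 0.55 ± 0.16, or 1.46-fold, in KpCKO (adjusted p = 0.0825), with the same sign in 2 of 2 cultures each. *Ciita* was at 0.47 and 1.15 in WT M2 and at 0.37 and 1.17 in KpCKO M2. The WT M2 and WT Con arrays of *Ciita* overlapped, and the difference of 0.84 had a 95% interval from −1.21 to 2.89 (adjusted p = 0.55). In KpCKO its difference was 1.56, from −0.49 to 3.60 (adjusted p = 0.301). The classical chains stayed near their Con levels. *H2-Aa* was at 2.20 and 2.65 in WT M2 and at 2.20 and 1.82 in KpCKO M2, and *H2-Ab1* was at 5.19 and 5.77 and at 5.21 and 4.78. The 95% interval of the difference was −0.42 to 0.61 for *H2-Aa* and −0.38 to 0.75 for *H2-Ab1* in WT, and −0.60 to 0.43 and −0.45 to 0.68 in KpCKO.

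The M2 calls depended on single arrays. Leaving out any 1 of the 4 WT arrays compared ended the call of *H2-DMb1* (adjusted p from 0.0793 to 0.152), and only the set without the WT M2 array of culture 1 kept that of *Cd74* (adjusted p = 0.0326, against 0.137 to 0.214 without the others). For *H2-DMa* the call held in WT in all 4 such sets (adjusted p from 0.0384 to 0.0494). In KpCKO it was lost without the Con array of culture 1 (adjusted p = 0.0607) and without the M2 array of culture 2 (adjusted p = 0.0623), and that of *H2-DMb1* was lost in all 4 sets (adjusted p from 0.0921 to 0.205).

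**Figure D3:**
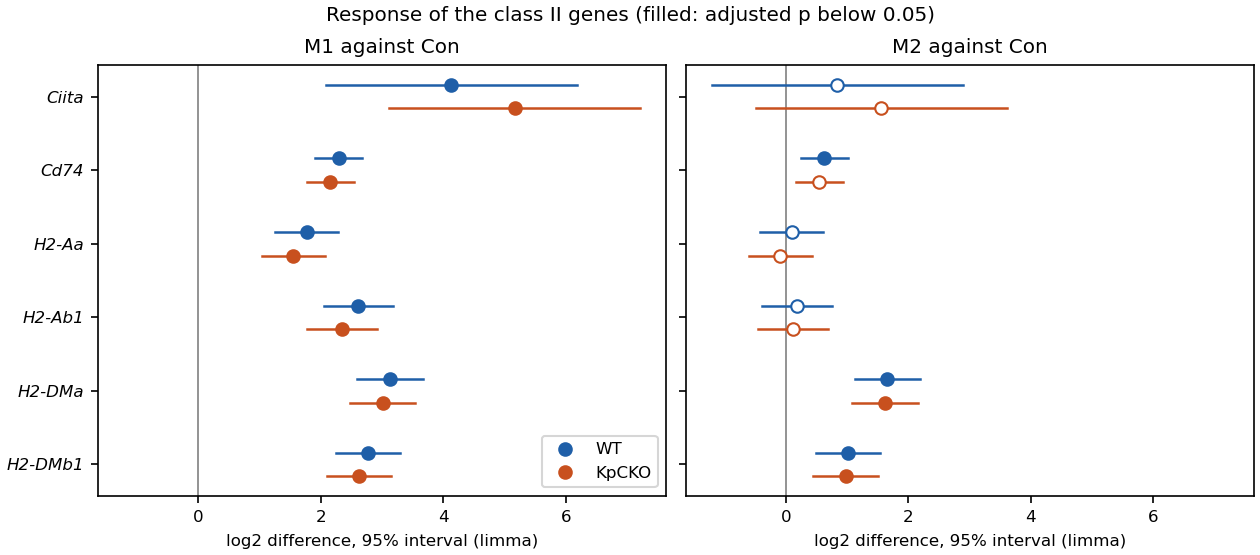
Log2 difference between stimulated and Con BMDMs for 6 class II genes, with 95% intervals from limma, WT in blue and KpCKO in orange, and filled circles for an adjusted p below 0.05. All M1 circles are filled, while in M2 those of *H2-DMa* and *H2-DMb1* are filled in both genotypes and that of *Cd74* in WT alone, and the genotype difference in the M2 response itself was not called for any of the 6 genes.

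KpCKO and WT were then compared within each stimulus, where both genotypes shared a slide and a culture. The Con, M1 and M2 cells of a genotype and culture came from 1 mouse. Pairs of arrays and values over the 3 stimuli thus rest on 2 mice per genotype. The main fit paired arrays by culture alone and treated the 3 arrays of a mouse as independent. *Cd74* was below its WT level in 6 of 6 KpCKO arrays, with log2 differences of −1.04 to −0.45. The difference was −0.66 ± 0.16 (SE) in Con (adjusted p = 0.116) and −0.74 ± 0.16 in M2 (adjusted p = 0.0905). It was −0.79 ± 0.16 in M1 and passed the test there (adjusted p = 0.0248). Over the 3 stimuli together it was −0.73 ± 0.09, so that WT was 1.66-fold higher (adjusted p = 0.0036), and this call held in each of 23 alternative limma settings (adjusted p from 0.00087 to 0.0164). The call in M1 alone did not hold without any 1 of the 4 M1 arrays (adjusted p from 0.0670 to 0.0876) or with quantile normalization, where the difference was −0.55 (adjusted p = 0.0555). The 75th percentile of the WT M1 arrays was below that of the KpCKO M1 arrays, and its part in this difference was not tested.

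*H2-Ab1* was lower in KpCKO in 5 of 6 pairs of arrays, with a median difference of −0.62. The exception was M2 of culture 1, at 0.02. Over the 3 stimuli the difference was −0.53 ± 0.14 (SE), so that WT was 1.44-fold higher (adjusted p = 0.0436). It was −0.23 in culture 1 and −0.82 in culture 2, and 2 of its 3 probes passed the test. Leaving out 1 array ended this call in 10 of 12 sets (highest adjusted p = 0.113, without the KpCKO Con array of culture 2), and it held without the WT M2 or the KpCKO M2 array of culture 1. *H2-Aa* was lower in KpCKO in 5 of 6 pairs as well, with a difference over the 3 stimuli of −0.37 ± 0.13 that did not pass the test (adjusted p = 0.0907). Here too culture 2 differed more than culture 1, by −0.66 against −0.08.

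The *H2-DM* genes and *Ciita* did not pass the genotype test in any stimulus. *H2-DMa* was lower in KpCKO in 3 of 6 pairs and higher in 3, and the difference over the 3 stimuli was −0.03, with a 95% interval from −0.34 to 0.27. *H2-DMb1* was higher in KpCKO in 6 of 6 pairs, by 0.04 to 0.38, and the difference of 0.18, with an interval from −0.12 to 0.49, did not pass the test (adjusted p = 0.364). For *Ciita* the difference was −0.17, from −1.35 to 1.01, an interval wide enough to hold a change of the size seen for *Cd74* in either direction.

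Of the 6 genes, 1 was called lower in KpCKO after M1 stimulation (*Cd74*), as were 8.58% of all genes tested, and 2 were called lower over the 3 stimuli (*Cd74* and *H2-Ab1*), where 8.55% were lower. By limma's adjusted p, 0 of 6 were called in Con, where 2.21% of all genes were, and 0 of 6 in M2, where 1.93% were. At an unadjusted p of 0.05, 1 of 6 passed in Con and 1 of 6 in M2, *Cd74* in each, and the methods' t-test called 0 in both. A genotype difference of the response itself was called for 0 of 6 genes in M1 and for 0 of 6 in M2, with 0 of 6 at an unadjusted p of 0.05 in each, where 0.0716% and 0.00894% of all genes were called. The fitted difference in the M1 response, KpCKO minus WT, ran from −0.26 for *H2-Ab1* to 1.04 for *Ciita*, whose 95% interval was −1.85 to 3.93.

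**Figure D4:**
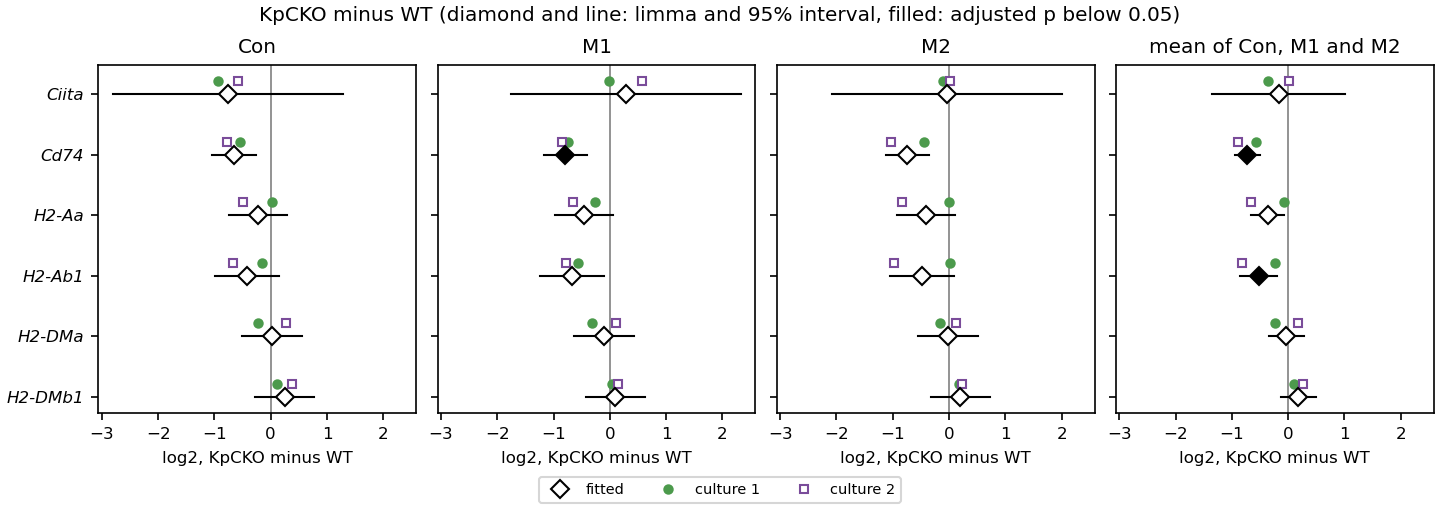
Log2 difference of KpCKO minus WT for 6 class II genes in Con, M1, M2 and their mean, with limma's estimate and 95% interval (diamond and line, filled for an adjusted p below 0.05) and the difference in culture 1 (green circles) and culture 2 (purple squares). *Cd74* lies below 0 in both cultures in every panel, whereas *H2-DMa* and *H2-DMb1* lie near 0.

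The other class II genes and the genes around the pathway were read from lists of 35 genes, of which 33 could be tested. In WT M1, 19 of the 33 rose and 8 fell, where 34.5% of all genes tested were higher and 28.7% lower, and in KpCKO M1, 16 rose and 7 fell, where 24.8% were higher and 25.4% lower. In M2, 7 rose and 1 fell in WT, against 8.62% higher and 8.20% lower over all genes, and 6 rose and 1 fell in KpCKO, against 5.66% and 4.53%. The median log2 difference in WT M1 was 2.02 for the other class II genes, 0.41 for the promoter factors, 0.88 for the genes from the IFNγ receptor to *Ciita*, −0.07 for other factors of *Ciita*, 0.02 for endosomal proteolysis and 0.66 for the ligases, against 0.13 over all genes tested. In KpCKO M1 these medians were 2.26, 0.15, 0.71, −0.02, 0.06 and 0.79 in the same order, against 0.03. Among the other class II genes, *H2-Oa* and *H2-Ob*, the chains of H2-O, which restrains H2-DM, rose in WT M1 by 2.02 (adjusted p = 0.0026) and 3.11 (adjusted p = 0.0015). *H2-Ob* was well above background on both arrays only in the M1 groups, through which it entered the test, so a difference had to follow, and it is 1 of the genes counted as higher above. With the normexp background correction its rise was 1.42 in WT, and the KpCKO rise of 2.53 became 0.68 and lost the call (adjusted p = 0.185). *H2-DMb2*, a near copy of *H2-DMb1*, was at −5.75 and −6.28 in WT Con, −4.87 and −4.97 in WT M1 and −3.67 and −3.74 in WT M2. Its M2 arrays lay above its M1 arrays, unlike those of *H2-DMb1*, and the rise over Con was 2.31 ± 0.27 (SE) in WT M2 (adjusted p = 0.0034) and 1.09 ± 0.27 in WT M1 (adjusted p = 0.0110). The WT M1 call of *H2-DMb2* was lost without the Con array of culture 2 (adjusted p = 0.0756) or the M1 array of culture 1 (adjusted p = 0.0603). Whether the probes of the 2 copies tell them apart was not tested. The KpCKO rises were 2.01 with IL-4 (adjusted p = 0.0086) and 1.24 with M1 stimulation (adjusted p = 0.0083). Both calls were lost without the Con array of culture 1 or the stimulated array of culture 2 (adjusted p from 0.0537 to 0.0609). With normexp the KpCKO rises of *H2-DMb2* were 0.78 in M2 (adjusted p = 0.112) and 0.58 in M1 (adjusted p = 0.0783), so both calls ended, and the WT M2 rise was 1.37 and was still called. *H2-Eb2* was too dim to be tested and *H2-Ea* had no matched probe.

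Of the 7 factors that bind class II promoters, 4 rose and 2 fell in WT M1, the latter a share close to that over all genes. *Rfx5*, a DNA-binding subunit of RFX, went from −3.66 and −3.15 in WT Con to −1.22 and −1.31 in WT M1, a rise of 2.14 (adjusted p = 0.00030), and rose by 2.43 in KpCKO M1 (adjusted p = 0.00028). The other RFX subunits fell, *Rfxap* by 0.96 (adjusted p = 0.00017) and *Rfxank* by 1.17 (adjusted p = 0.0019) in WT M1, and *Rfxap* also fell by 1.04 in WT M2 (adjusted p = 0.0015). Of the NF-Y genes, *Nfyb* rose by 0.74 (adjusted p = 0.0017) and *Nfyc* by 0.41 (adjusted p = 0.0143) in WT M1, and *Creb1* rose by 0.53 (adjusted p = 0.0435). The calls of *Nfyc* and *Creb1* held in 1 of 4 sets without 1 array each, that without the WT M1 array of culture 1 for *Nfyc* and of culture 2 for *Creb1*. With the mean of its probes *Creb1* rose by 1.40. In KpCKO M1, 2 of the 7 rose and 2 fell, where 24.8% of all genes tested rose and 25.4% fell. Of those that fell, *Rfxank* was at −0.04 and 0.69 in KpCKO Con and at −0.24 and −0.27 in KpCKO M1. Its call there held in 10 of 24 alternative limma settings. With IL-4, *Nfyc* rose by 0.43 in WT (adjusted p = 0.0381) and *Nfya* by 0.64 in KpCKO (adjusted p = 0.0345), and both calls were lost in all 4 sets without 1 array of the groups compared.

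Of the 8 genes between the IFNγ receptor and *Ciita*, 5 rose and 2 fell in M1 in both genotypes. Over all genes tested, 34.5% rose and 28.7% fell in WT M1, and 24.8% and 25.4% in KpCKO M1. Without 1 array of the KpCKO groups compared, 4 to 6 of these 8 genes were called in KpCKO M1, the fewest without the M1 array of culture 2. *Irf1*, whose product acts on an IFNγ-responsive *Ciita* promoter, rose by 4.58 in WT (adjusted p = 1.6e-05) and 4.57 in KpCKO (adjusted p = 2.9e-05). *Socs1*, a feedback inhibitor of this signal, rose by 8.74 in WT M1 and by 6.18 in WT M2 (adjusted p = 4.6e-05 in M2). *Ifngr1*, the ligand-binding receptor chain, fell by 0.99 in WT M1 (adjusted p = 0.0036). Its fall of 0.68 in KpCKO M1 (adjusted p = 0.0240) held in 1 of 4 sets without 1 array. *Ifngr2*, the other receptor chain, rose by 0.43 in WT M2 (adjusted p = 0.0357), which was lost in all 4 such sets. *Jak1*, a kinase on the receptor, rose by 0.64 in WT M1 (adjusted p = 0.0049) and by 0.57 in KpCKO M1 (adjusted p = 0.0104). With quantile normalization the *Jak1* differences were 0.0151 (adjusted p = 0.925) and 0.14 (adjusted p = 0.394). *Irf2*, a relative of *Irf1*, rose by 1.12 (adjusted p = 0.0018) and 0.84 (adjusted p = 0.0088), and *Usf1*, a factor of an IFNγ-responsive *Ciita* promoter, fell by 0.76 (adjusted p = 0.00081) and 0.71 (adjusted p = 0.0016). In KpCKO the calls of *Jak1* and *Irf2* each held in 2 of 4 sets without 1 array. They were lost without the M1 array of culture 2, and without the Con array of culture 1 for *Jak1* and of culture 2 for *Irf2*. *Jak2*, the other such kinase, was at 4.93 and 5.58 in WT M1 and at 3.67 and 4.41 in KpCKO M1, and the groups did not overlap. The genotype difference of *Jak2* in M1 was −1.21 ± 0.19 (SE) (adjusted p = 0.0117), and it did not pass the test without the WT M1 array of culture 2 (adjusted p = 0.0645) or the KpCKO M1 array of culture 1 (adjusted p = 0.0657). The difference of *Jak2* over all stimuli was −0.45 (adjusted p = 0.0367), which held in 3 of the 12 sets without 1 array, namely when WT M1 of culture 1, KpCKO M1 of culture 2 or KpCKO M2 of culture 1 was left out.

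Among 5 other factors of the *Ciita* gene, *Irf8* rose by 3.33 and *Spi1* (PU.1) by 1.43 in WT M1, and *Irf4* by 5.60 (adjusted p = 0.0165) and *Spi1* by 0.59 (adjusted p = 0.0148) in WT M2. Both M2 calls were lost in all 4 sets without 1 array of the WT groups compared (adjusted p from 0.0793 to 0.108 for *Irf4* and from 0.0542 to 0.110 for *Spi1*). *Irf4* was at −4.19 and −3.76 in WT Con and at 1.62 and 1.63 in WT M2. *Stat6*, which carries the IL-4 signal, fell by 0.54 in WT M1 (adjusted p = 0.0165), a call lost without the WT Con array (adjusted p = 0.101) or the WT M1 array (adjusted p = 0.0909) of culture 1. *Irf8* was lower by 0.54 in KpCKO M1, against WT M1 (adjusted p = 0.0342), and of the 4 sets without 1 M1 array this held only in that without the KpCKO array of culture 1. Of the 2 ligases that remove class II from the surface, *Marchf1* rose in WT M1 by 1.03 (adjusted p = 0.0057), and *Marchf8*, at 0.29, did not pass the test.

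The 8 genes of endosomal proteolysis and peptide supply moved in both directions in M1, with 4 higher and 3 lower in WT. Over all genes tested, 34.5% were higher and 28.7% lower in WT M1. In M2, 0 of 8 passed limma's adjusted test in either genotype, with 2 of 8 at an unadjusted p of 0.05 in each. *Sppl2a*, which clears the membrane remnant of the invariant chain, rose by 2.65 in WT M1, and *Ctsl*, a cathepsin that processes this chain, fell by 1.09 (adjusted p = 0.00093). The proteases *Ctsd* and *Lgmn* fell as well, by 0.41 (adjusted p = 0.0055) and 0.50 (adjusted p = 0.0220), and the call of *Lgmn* was kept without the WT M1 array of culture 2 and lost in the other 3 sets. In KpCKO M1 *Lgmn* fell by 0.62 (adjusted p = 0.0116), a call lost without the Con or the M1 array of culture 2. The rises of *Ctss* by 0.54, *Ctsb* by 0.61 and *Cst3* by 0.44 in WT M1 turned into falls with quantile normalization, at −0.35, −0.29 and −0.40. The same setting put *Ctsl* at −1.92, *Ctsd* at −1.28, *Lgmn* at −1.30 and *Ifngr1* at −1.70 in WT M1. The mean of its probes put *Ctsb* at 0.0096 (adjusted p = 0.927). Between genotypes, *Ifi30*, the lysosomal thiol reductase of peptide supply, was higher in KpCKO over the 3 stimuli by 1.03 (adjusted p = 0.0043) and *Ctsd* by 0.39 (adjusted p = 0.0037), and both calls held in each of 23 alternative limma settings. *Ifi30* was at 2.15 and 2.05 in WT Con and at 3.36 and 2.65 in KpCKO Con. *Ctsl* was higher in KpCKO by 0.34 over the 3 stimuli (adjusted p = 0.0486), which held in 1 of the 12 sets without 1 array, namely when the culture 2 array of KpCKO M1 was left out, and *Sppl2a* was lower by 0.60 in KpCKO M1 (adjusted p = 0.0203), which was lost without the WT M1 array of culture 2 (adjusted p = 0.0942) or the KpCKO M1 array of culture 1 (adjusted p = 0.109).

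Over all 33 genes of these lists, 2 were higher (*Ifi30* and *Ctsd*) and 3 lower (*Jak2*, *Irf8* and *Sppl2a*) in KpCKO after M1 stimulation, where 7.41% of all genes were higher and 8.58% lower. The M1 call of *Ifi30* was lost in 3 of the 4 sets without 1 M1 array (adjusted p from 0.0566 to 0.108), all but that lacking culture 2 of KpCKO, and that of *Ctsd* was lost without the culture 2 array of WT M1 or the culture 1 array of KpCKO M1. Over the 3 stimuli 3 were higher and 1 lower, against 8.61% and 8.55% of all genes. By limma's adjusted p, 0 of 33 were called between genotypes in Con and 0 of 33 in M2, with 2 and 4 at an unadjusted p of 0.05. For the genotype difference in the M1 response 0 of 33 were called, with 4 at an unadjusted p of 0.05.

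**Figure D5:**
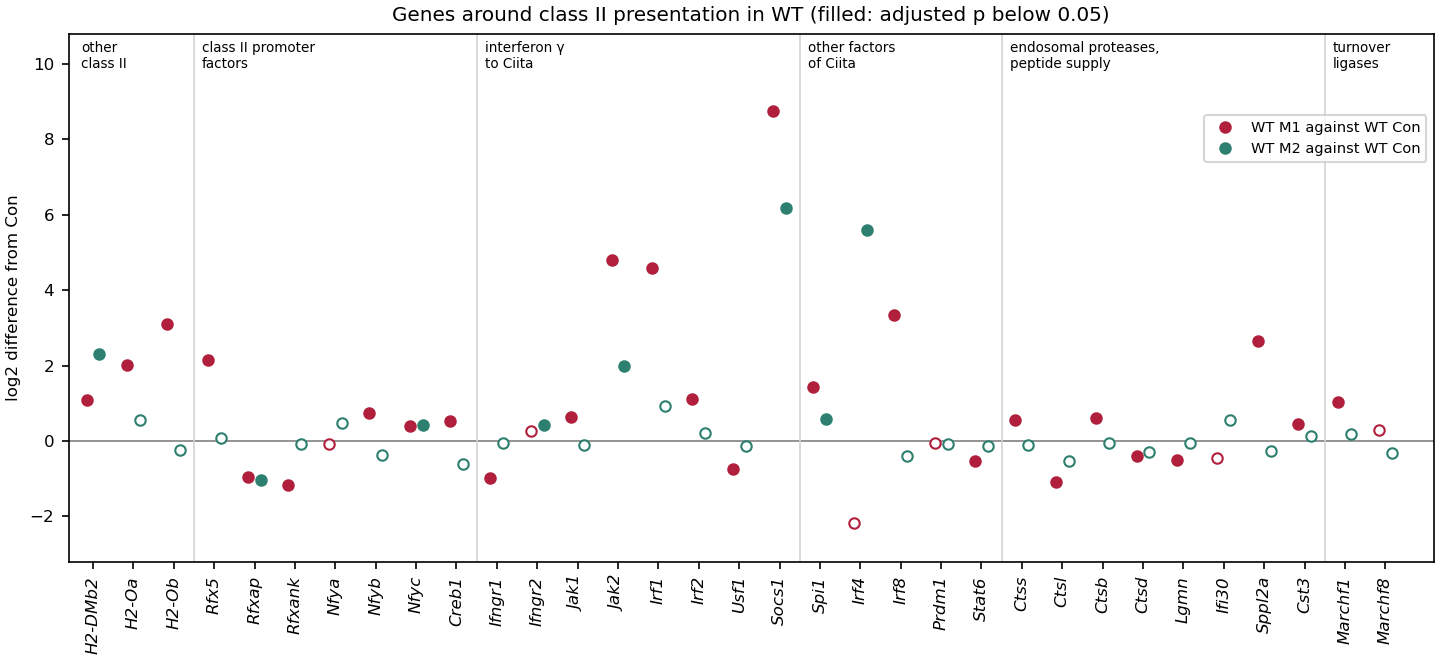
Log2 difference from WT Con of 33 genes around class II presentation in WT M1 (red) and WT M2 (green), grouped by role, with filled circles for an adjusted p below 0.05. *Socs1* shows the highest M1 value, at 8.74, and *Irf4* rises in M2 alone of the 2 stimuli by the test, whereas *H2-DMb2* rises in both.

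B cells and dendritic cells also express class II genes, so their markers were read on the same arrays. Of 7 B cell markers, *Ms4a1*, *Pax5* and *Blk* were above background on 0 of 12 arrays, and the log2 summed level of the list was −2.25 and −2.01 in WT M1 against −0.94 and −0.80 in WT Con, and −2.04 and −2.13 in KpCKO M1 against −1.19 and −0.02 in KpCKO Con. The B cell list was thus lower on the M1 arrays, where the class II genes were highest. Of the 7 dendritic cell markers with a probe, 4 were above background on all 12 arrays, and the summed level was 2.98 and 2.97 in WT M1 against 0.76 and 0.78 in WT Con. It was higher in KpCKO than in WT within each stimulus, with 3.93 and 3.01 in KpCKO Con, 4.32 and 3.79 in KpCKO M1, and 4.76 and 4.15 in KpCKO M2 against 2.59 and 3.16 in WT M2. *Itgax*, which macrophages also express, was the only marker of the list called higher in KpCKO, by 2.0 on the log2 scale over the 3 stimuli, 2.99 in Con and 1.37 in M1. *Xcr1* was called lower in KpCKO M1, by 1.05 (adjusted p = 0.0182), and *Ccr7* and *Flt3* differed there by −0.58 and −0.31 without passing the test. In WT the dendritic cell sum was higher than in Con with M1 and also with M2. In WT M1 against WT Con, *Ccr7* (2.77), *Zbtb46* (2.57), *Itgax* (2.16) and *Xcr1* (1.79) were called higher. *Flt3* (0.48), *Siglech* (0.06) and *Cd209a* (−0.47) were not called there. In WT M2 against WT Con, *Itgax* (2.36) alone of this list was called. In KpCKO M1 against KpCKO Con, *Ccr7* (1.89), *Zbtb46* (2.16) and *Xcr1* (0.76) were called higher and *Siglech* (−1.12) lower. *Itgax* (0.54), *Flt3* (−0.33) and *Cd209a* (−1.67) were not called there. The part of this list in the class II values was not tested. Of 5 T cell markers, *Cd3d* was above background on 0 of 12 arrays, and the summed level was 1.27 and 1.67 in WT M1 against −2.86 and −2.86 in WT Con, and 1 of the 5 was above background on both WT M1 arrays. *Lck* was higher in WT M1 by 7.61 and was the only one called higher, while *Cd2* was called lower, by 1.91 (adjusted p = 0.0345), and *Cd3e* and *Cd3g* did not pass the test. The part of the T cell list was not tested either. The macrophage list had a lower sum in KpCKO, at 8.66 and 8.87 in Con against 9.19 and 9.32 for WT. In M1 the KpCKO sums were 9.13 and 9.37, against WT sums of 9.70 and 10.02. Its genes were split. Over the 3 stimuli *Cd14* (−1.12), *Fcgr1* (−0.85), *Lyz2* (−0.71) and *Adgre1* (−0.24) were called lower in KpCKO. *Itgam* (−0.18), *Csf1r* (−0.10) and *Mertk* (−0.03) were not, although *Itgam* was called lower within M1 (−0.65). *Lyz2* is the lysozyme M gene, whose locus drives Cre in KpCKO mice and not in WT mice. For *Lyz2*, and for the sum that includes it, a marker difference and the Cre allele cannot be told apart. The part of the macrophage markers in the genotype difference of *Cd74* was not tested.

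Patterns over the 12 arrays were compared by Pearson's r with 12106 other named genes above background on all arrays. This is a description with no test, since arrays of a group share their stimulus and slide. The genes most like *Ciita* were *Ptprj* (r = 0.973), *Dennd2d* (r = 0.967), *Zmiz2* (r = 0.966), *Irf1* (r = 0.964) and *Tnip3* (r = 0.963). The genes most like the mean of the other 5 members were *Nupr1* (r = 0.994), *Tnip3* (r = 0.992), *Junb* (r = 0.991), *Cd40* (r = 0.991) and *Tmem243* (r = 0.991).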

How the data were processed

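The members and gene lists were chosen with earlier results of these data known, and 1 listed gene is not reported here. RNA of 12 BMDM samples in 6 groups of 2 was hybridized to 1-colour arrays on 3 slides. Scanned spots were read by the authors in Agilent's Feature Extraction software (10.7.3.1), who deposited, per array, background-subtracted intensity values and flags for each spot, with 0 saturated spots. They also deposited a matrix of normalized log2 values, used as an alternative.

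Spots with an outlier flag were dropped, a probe's spots were averaged, and the 75th percentile of each array was subtracted from its log2 intensities. Of 41174 probes, 26690 matched 18217 gene symbols by accession. The brightest probe by mean stood for a gene. A gene was kept if both arrays of some group flagged it well above background, which left 22373 genes. limma 3.58.1 in R 4.3.3 fitted the 6 groups and culture (5 residual and 1.92 prior degrees of freedom), and Benjamini-Hochberg adjusted p was held to 0.05. The fit was also run on simulated data with a culture shift and independent noise on each array. That run cannot check whether the arrays of a mouse are independent. Promoter windows came from RefSeq, whose build differs from that of the array design. Tables were made with pandas 2.3.3 in Python 3.11.15 and plots with matplotlib 3.10.9.

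Each stimulus was compared with Con within a genotype, and KpCKO with WT within each stimulus and over all 3. The genotype difference of both responses was tested too. Named were the 7 members in full, the listed genes that passed the test with up to 4 examples that did not, *Keap1* and *Nqo1* as a check, and for *Ciita* and the mean of the other measured members the 5 genes of highest r. Pairing by culture is stated with the series, and the deviations of 22090 genes from their group means correlated at 0.162 to 0.597 between same-culture arrays in 15 pairs of groups. The alternatives were quantile normalization, a normexp correction with an offset of 50, the authors' matrix, other filters on dim probes, a floor, the mean of a gene's probes, each probe, no replicate block, a mouse block, other variance models, the groups compared alone, Student's unpaired t-test and leaving out each array. The paper names this t-test for its other assays, and it selected array genes by fold change. The number of arrays limits the precision of each value.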

Additional observations from a re-analysis of the deposited data

Results flagged for a closer look

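For *H2-Aa* after IL-4, the signs differed between genotypes. Both WT cultures were above Con, by 0.098 on average on the log2 scale, and both KpCKO cultures were below it, by −0.0858. The difference itself, tested as the genotype difference in the M2 response, was −0.18 with a 95% interval from −0.91 to 0.54 and did not pass limma's test (unadjusted p = 0.568), and the second probe of *H2-Aa* gave 0.15 in WT and 0.06 in KpCKO.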

How the results depend on the processing

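All 6 M1 calls in each genotype held in all 24 limma alternatives, the unpaired t-test after adjustment called 3 of 6 in WT and 0 of 6 in KpCKO, and no call of a member changed direction. Of 1230 alternative values of 48 results for single members, 1115 kept their direction and side of the threshold, 77 lost the call, 5 gained one and 33 changed sign. The genotype difference in either response was called for 0 of 6 in every alternative run. The median of all genes in WT M1 moved from 0.13 to −0.08 with quantile normalization and to 0.40 with normexp.

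Of 6 members, M2 calls in WT were 0 with the adjusted t-test, and 1 with the unadjusted t-test, with normexp or without the replicate block. In KpCKO M2 they were 0 with the adjusted t-test or the groups compared alone, and 1 with the unadjusted t-test, normexp, quantile normalization, no filter on dim probes or no replicate block. For KpCKO against WT in M1 they were 0 with the adjusted t-test, quantile normalization, the groups compared alone or no replicate block, and 2 with the unadjusted t-test. In M2 the genotypes differed for 1 with quantile normalization or a trended and robust variance. Over all stimuli 1 was called with normexp, no filter on dim probes or no replicate block. Leaving out 1 array gave 1 to 2 calls in WT M2, 0 to 2 in KpCKO M2, 0 to 1 between genotypes in M1 and 1 to 2 over all stimuli. Without the block that pairs arrays by culture, calls over all genes fell from 3764 to 1715 in WT M2, from 2280 to 893 in KpCKO M2, from 3575 to 1193 between genotypes in M1 and from 3837 to 1859 over all stimuli. The cause of these changes was not tested.

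Among values with no call, *H2-Aa* in WT M2 was −0.0010 with normexp. *H2-DMa* between genotypes was 0.0534 (quantile) and 0.17 (normexp) in M1, 0.0216 (normexp) in M2, and 0.0209 (quantile) and 0.0773 (normexp) over all stimuli, and *Ciita* was 0.0486 (normexp) in M2. *Ctss*, *Ctsb* and *Cst3* turned to −0.35, −0.29 and −0.40 in WT M1 with quantile normalization, *Ctss* and *Ctsb* to −0.0494 and −0.18 in KpCKO M1, and *Ctsb* there to −0.10 with the mean of its probes. Leaving out 1 array gave, in WT M2, −0.15 to 0.34 for *H2-Aa* and −0.0829 to 0.45 for *H2-Ab1*, and in KpCKO M2 −0.34 to 0.17 and −0.22 to 0.45. Between genotypes it gave for *Ciita* −1.69 to 0.18 in Con, −0.93 to 1.496 in M1, −0.29 to 0.20 in M2 and −0.58 to 0.23 over all stimuli. For *H2-DMa* it gave −0.19 to 0.23, −0.43 to 0.23, −0.24 to 0.20 and −0.14 to 0.0762, and for *H2-DMb1* −0.19 to 0.39 in M1. The number of arrays limits the precision.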
